A study of Mus musculus with 16 samples.

Results

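The regions described here are 1 kb stretches of the mouse autosomes at which DNA methylation was intermediate in both B and T cells of the spleen. Chromosomes 1 to 19 of mm10 were divided from position 1 into regions of 1000 bases, and a region was eligible with at least 15 CpGs and at least 400 methylation calls in each cell type, summed over libraries. An eligible region was taken as intermediate where its pooled methylation level, which is the share of methylated calls among all calls, lay from 40 to 60% for B cells and also for T cells. This applied to 7432 of 286544 eligible regions (2.59%). A further 4894 regions lay within these limits in B cells only, and 5299 in T cells only.

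The data were 16 whole genome bisulphite sequencing (WGBS) libraries from C57BL/6J mice of 6 to 8 weeks of age, namely 8 of resting B cells (CD43-) and 8 of naive T cells (CD4+ CD62L+), each isolated from spleen with magnetic beads. In each cell type 4 libraries came from males and 4 from females. Of each 4, 2 were made by bisulphite (BS) treatment, which reads 5-methylcytosine and 5-hydroxymethylcytosine alike as methylated, and the other 2 by its oxidative form (oxBS), which reads 5-methylcytosine alone. The labels name no mouse, the samples are described as pooled and a portion of each DNA sample was oxidised, so that BS and oxBS libraries may share DNA and the spread between libraries, on which every p-value rests, may be technical. All mice were of a single inbred strain, so calls could not be assigned to the parental alleles.

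In most mammalian cells a stretch of CpGs is either methylated on nearly all DNA molecules or free of methylation on nearly all of them. Imprinted genes are the textbook exception. Their control regions carry methylation on the copy inherited from the mother or from the father alone, mostly laid down in the egg or the sperm, and the genes nearby are then expressed from a single parental copy. The zinc finger protein ZFP57 binds the methylated motif TGCCGC and keeps such marks in place after fertilisation.

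Sequences are given for 5 intermediate regions, which were picked by CpG number or by spread and do not stand for intermediate regions in general. The first 4 are the regions with most CpGs at imprinted genes with a parental mark, and the fifth is the region with the largest spread between libraries, which also separated male from female libraries. Each is the stretch of 300 bases with most CpGs in its region, on the plus strand of the GRCm38 reference from 5′ to 3′, with CpGs in capitals.
Grb10 (chr11:12026207-12026506): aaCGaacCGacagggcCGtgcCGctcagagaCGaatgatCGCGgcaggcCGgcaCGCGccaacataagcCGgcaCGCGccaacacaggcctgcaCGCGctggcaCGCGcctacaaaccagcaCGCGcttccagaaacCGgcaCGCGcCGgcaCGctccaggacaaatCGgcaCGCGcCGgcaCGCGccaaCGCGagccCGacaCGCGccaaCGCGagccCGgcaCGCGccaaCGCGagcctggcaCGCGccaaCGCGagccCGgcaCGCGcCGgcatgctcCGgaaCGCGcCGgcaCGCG
Zdbf2 (chr1:63309295-63309594): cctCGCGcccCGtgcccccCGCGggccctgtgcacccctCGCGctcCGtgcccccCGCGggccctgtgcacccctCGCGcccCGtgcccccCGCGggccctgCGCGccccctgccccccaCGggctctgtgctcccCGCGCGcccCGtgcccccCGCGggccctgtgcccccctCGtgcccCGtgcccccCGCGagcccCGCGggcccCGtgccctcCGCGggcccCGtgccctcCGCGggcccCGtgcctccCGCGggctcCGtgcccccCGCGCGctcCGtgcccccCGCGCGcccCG
Gnas (chr2:174327689-174327988): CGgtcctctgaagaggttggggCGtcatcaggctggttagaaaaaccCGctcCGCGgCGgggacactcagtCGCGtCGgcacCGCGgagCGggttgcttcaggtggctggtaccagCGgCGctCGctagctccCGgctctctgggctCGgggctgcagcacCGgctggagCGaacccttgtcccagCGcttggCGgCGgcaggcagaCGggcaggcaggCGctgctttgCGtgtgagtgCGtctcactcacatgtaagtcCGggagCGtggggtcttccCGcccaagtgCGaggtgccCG
Gnas and Nespas (chr2:174299634-174299933): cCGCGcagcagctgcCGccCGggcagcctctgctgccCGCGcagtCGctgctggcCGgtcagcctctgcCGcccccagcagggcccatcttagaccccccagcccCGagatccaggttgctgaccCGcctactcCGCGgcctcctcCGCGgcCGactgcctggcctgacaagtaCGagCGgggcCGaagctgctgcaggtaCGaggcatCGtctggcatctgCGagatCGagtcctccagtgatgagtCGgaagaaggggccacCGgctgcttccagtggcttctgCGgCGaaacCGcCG
Near C1s2 (chr6:124639092-124639391): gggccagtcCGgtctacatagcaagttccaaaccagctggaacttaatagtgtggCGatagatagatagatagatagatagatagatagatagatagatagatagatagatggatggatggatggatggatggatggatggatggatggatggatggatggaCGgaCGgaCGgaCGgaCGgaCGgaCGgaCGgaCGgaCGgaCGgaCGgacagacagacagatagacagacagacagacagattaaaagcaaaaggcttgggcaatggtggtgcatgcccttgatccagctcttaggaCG
The Grb10 stretch, at the start of an annotated transcript of the gene for an adaptor protein of insulin receptor signalling, held 56 CpGs, 2 copies of TGCCGC over both strands, and a pooled level of 41.9% for B cells and 42.7% for T cells. The Zdbf2 stretch held 48 CpGs in an exon and no copy of the motif, with a pooled level of 29.2% for B cells and 42.6% for T cells, where its whole region had 41.2 and 49.4%. The first stretch at Gnas, which encodes a G protein subunit, held 31 CpGs and 1 copy. The stretch labelled Gnas and Nespas held 29 CpGs and 2 copies. It overlaps Gnas but not the antisense transcript Nespas, for which it counts only because its region lies within 5 kb of that gene. The stretch near C1s2 differed from these in that most of its 15 CpGs lay in a simple repeat, with 13 successive units of GATA, 13 of GATG and 12 of GACG.

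Pooled levels of the 7432 intermediate regions had a median of 50.6% for B cells and 50.6% for T cells, while all eligible regions had medians of 91.9% and 91.4%. The absolute difference between B and T cells had a median of 2.85 points and reached at most 19.7 points, a limit that the choice of regions sets. Near the limits, the regions just inside had pooled B cell levels of 40% (near Jag2 and in Mthfd1l, for example) and those just outside 39.99% (near Rasl11a) and 39.98% (in Pigk). At the upper limit they were 60% (in Frmd4b) and 60.02% (at Notum) in B cells. In T cells the regions on either side of the limits were at 40% (in Uevld) and 39.99% (near 1110038F14Rik), and at 59.98% (in Slit3) and 60.01% (near Hs3st3b1).

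**Figure D1:**
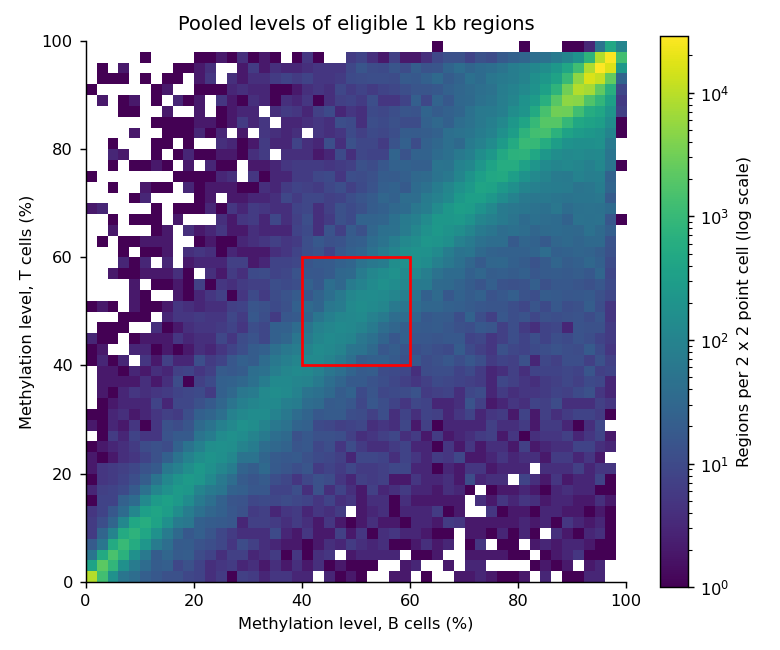
Pooled methylation level of each eligible 1 kb region in B cells (x axis, %) against T cells (y axis, %), with colour giving the number of regions per cell of the grid on a log scale. Most of the 286544 regions lie at the high end of both axes, and the red square marks the 7432 intermediate regions.

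The same regional level was reached by different patterns of single CpGs. Among CpGs with at least 20 pooled calls in each cell type, those between 25 and 75% in both cell types were counted. A region was called evenly intermediate where at least 75% of these CpGs lay between the limits, split where under 25% did, and mixed otherwise. By these definitions 340 regions (4.58%) were evenly intermediate, 3600 (48.4%) were mixed and 3492 (47.0%) were split. The evenly intermediate region with most CpGs was in an exon of Rbmxl2, an RNA-binding protein gene of the testis, at chr7:107210001-107211000. In B cells 104 of its 124 CpGs lay between 25 and 75%, 6 lay below and 14 above. The mixed region with most CpGs, at the start of the sulphotransferase gene Gal3st3 (chr19:5307001-5308000), had 64 of 105 CpGs between the limits. The split region with most CpGs, chromosome 18 left aside, was in Kbtbd6 (chr14:79452001-79453000, with 41.9 calls per CpG over all libraries). Counting also CpGs with under 20 calls, 24 of its 75 CpGs lay below 25% in B cells, 33 above 75% and 18 between. The pooled B cell level was 54.1% at Kbtbd6, beside 53.4% at Rbmxl2 and 54.0% at Gal3st3.

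**Figure D2:**
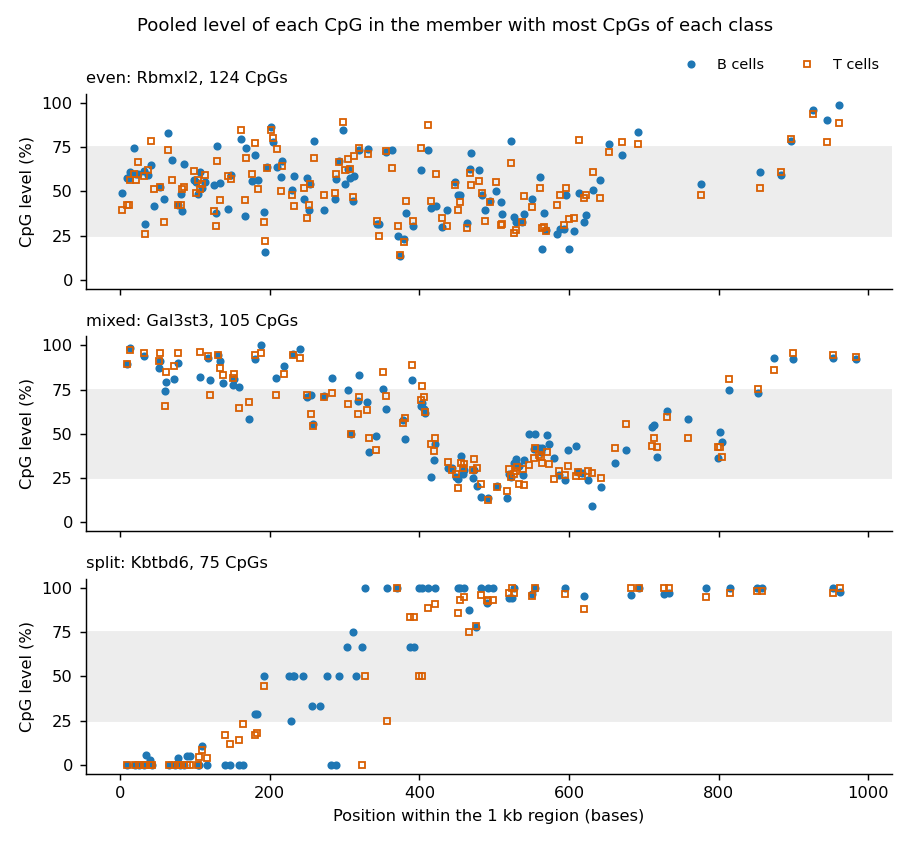
Pooled level (y axis, %) of every CpG by its position in the region (x axis, bases) for the evenly intermediate, mixed and split regions with most CpGs, with filled circles for B cells, open squares for T cells and grey between 25 and 75%. Of the CpGs in B cells, 104 of 124 lie in the grey band at Rbmxl2, 64 of 105 at Gal3st3 and 18 of 75 at Kbtbd6. Chromosome 18 was left aside when these regions were chosen.

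The surroundings of intermediate regions were examined by class, to see whether a region lay where methylation changed along the chromosome. Both neighbouring 1 kb regions had at least 50 calls for 7373 intermediate regions, and for 1137 of these (15.4%) the neighbour on one side was at 20% or less and the neighbour on the other at 80% or more, beside 14662 of 279551 eligible regions (5.24%). This share was 20.4% (710 of 3472) for split, 11.7% (416 of 3567) for mixed and 3.29% (11 of 334) for evenly intermediate regions. Conversely, a neighbour within the limits of level, eligible or not, was found beside 37.4% of evenly intermediate regions (125). Such a neighbour was found beside 11.9% of mixed (423) and 9.22% of split regions (320), where the share over all eligible regions was 4.76%. Fewer had a neighbour that was also eligible, since runs of 2 or more intermediate regions held 97 evenly intermediate, 225 mixed and 155 split regions. Most of the evenly intermediate regions at listed imprinted genes lay in runs of 2 or more intermediate regions (56 of 62), while 29 of the 236 at neither imprinted nor protocadherin genes, not between Gpr1 and Zdbf2, in no study element and not over 50% masked did. In B cells the adjoining regions had median levels of 73.8 and 73.4% around evenly intermediate, 82.3 and 81.3% around mixed and 84.6 and 85.4% around split regions.

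**Figure D3:**
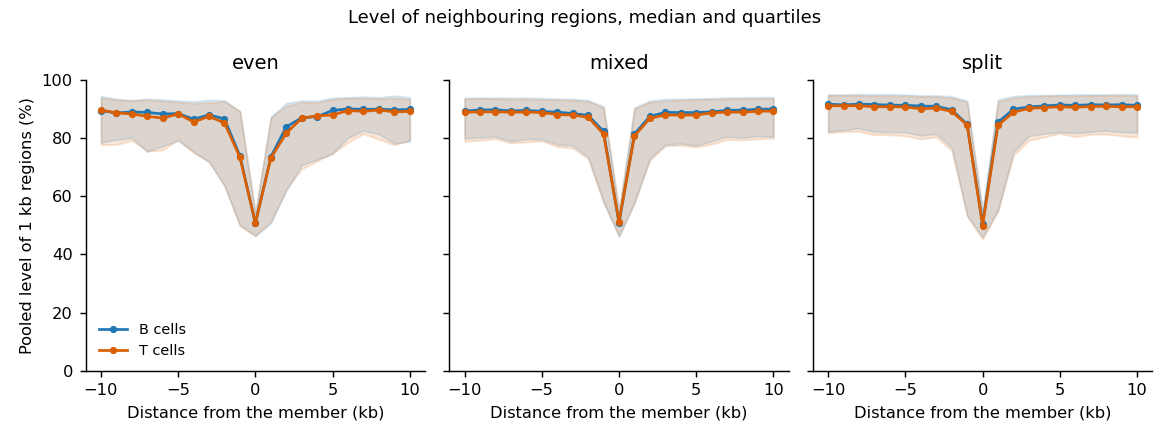
Median (line) and quartiles (shading) of the pooled level (y axis, %) of 1 kb regions at distances up to 10 kb from an intermediate region (x axis, kb), for evenly intermediate, mixed and split regions, in B cells (blue) and T cells (orange). Around evenly intermediate regions the B cell median is 73.8% in the region adjoining on the left and 89.4% at 10 kb on that side.

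Intermediate regions were spread over all 19 autosomes, from 198 on chromosome 16 to 598 on chromosome 4. Their share of eligible regions ran from 2.11% on chromosome 3 to 3.10% on chromosome 7. Most stood alone, since 6955 of 7181 uninterrupted runs were a single region, 212 were 2 kb long, 9 were 3 kb, 1 was 4 kb, 3 were 5 kb and 1 was 7 kb. Among the 53 regions in runs of 3 kb or more, 40 were evenly intermediate. The 5 longest runs were all at imprinted genes, and every one of their regions was evenly intermediate. They lay at Nespas and Gnas (chr2:174294001-174301000, with 350 CpGs, and chr2:174283001-174288000, with 227 CpGs), at Mest (chr6:30735001-30740000), upstream of Rasgrf1 (chr9:89878001-89883000) and at Peg3 and Usp29 (chr7:6728001-6732000).

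By annotation, 889 intermediate regions (11.96%) overlapped the start of a transcript, against 12.65% of all eligible regions. A further 1432 (19.3%, against 23.2%) overlapped an exon, 2230 (30.01%, against 31.7%) lay in introns and 2881 (38.8%, against 32.5%) lay between genes. Regions in which over 50% of bases were masked as repeats made up 2.68% of intermediate regions (199) and 12.1% of all eligible regions. The median CpG number was 19 against 18 and the median GC content 49.3% against 48.4%. Of evenly intermediate regions, 19.4% were at a start and 7.06% were over 50% masked, with a median of 23 CpGs. TGCCGC was found on either strand in 1420 intermediate regions (19.11%) and in 20.5% of all eligible regions. The share was 32.6% (111) in evenly intermediate, 19.2% in mixed and 17.7% in split regions. At least 2 copies were found in 11.2% of evenly intermediate regions, against 3.32% of all eligible regions. GGNGGCAG, the core of the motif of the insulator protein CTCF, was found in 38.5% of intermediate, 38.2% of evenly intermediate and 34.0% of all eligible regions.

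Known imprinted loci held 62 of the 340 evenly intermediate regions. A list of 61 textbook imprinted genes was examined, taking regions within 5 kb of each gene and, for H19, Meg3 and Rasgrf1, up to 40 kb upstream. Of these genes, 42 had an intermediate region and 29 an evenly intermediate one. Since neighbouring genes share regions, this came to 90 distinct regions out of 883 eligible (10.2%, beside 2.59% over the autosomes). Of the 90, 62 were evenly intermediate, 14 mixed and 14 split. The list named 23 genes with a parental mark, 19 on the maternal and 4 on the paternal copy. An intermediate region was found at 21 of these genes and an evenly intermediate one at 19, namely 15 with the maternal and 4 with the paternal mark. Together the 23 genes had 66 intermediate regions among 287 eligible (23%), of which 56 were evenly intermediate. TGCCGC occurred in 30 of the 56 (53.6%), beside 20.5% of all eligible regions. The motif holds a CpG, and the 56 regions had a median of 41 CpGs, beside 18 in all eligible regions. It was also found in 13 of the 22 intermediate regions (59.1%) that overlap repeat elements of the study. Of the 236 evenly intermediate regions described above as at none of the named places, 68 (28.8%) held the motif. Of the 11 between Gpr1 and Zdbf2, 1 (9.09%) did. The list was drawn up with earlier results of these data known.

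Over the evenly intermediate regions of a locus, the mean of the 8 library levels ran from 42.5 to 53.2% for B and from 44.2 to 51.5% for T cell libraries at the 19 loci. The SD between libraries was 1.61 to 7.72 points in B cells (median 4.84) and 1.66 to 8.75 points in T cells (median 4.95), while counting of independent calls alone would give 0.672 to 3.34 points. No library fell below 27.7% or rose above 64.6% at any of these loci, and each library had 166 to 6237 calls there.

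**Figure D4:**
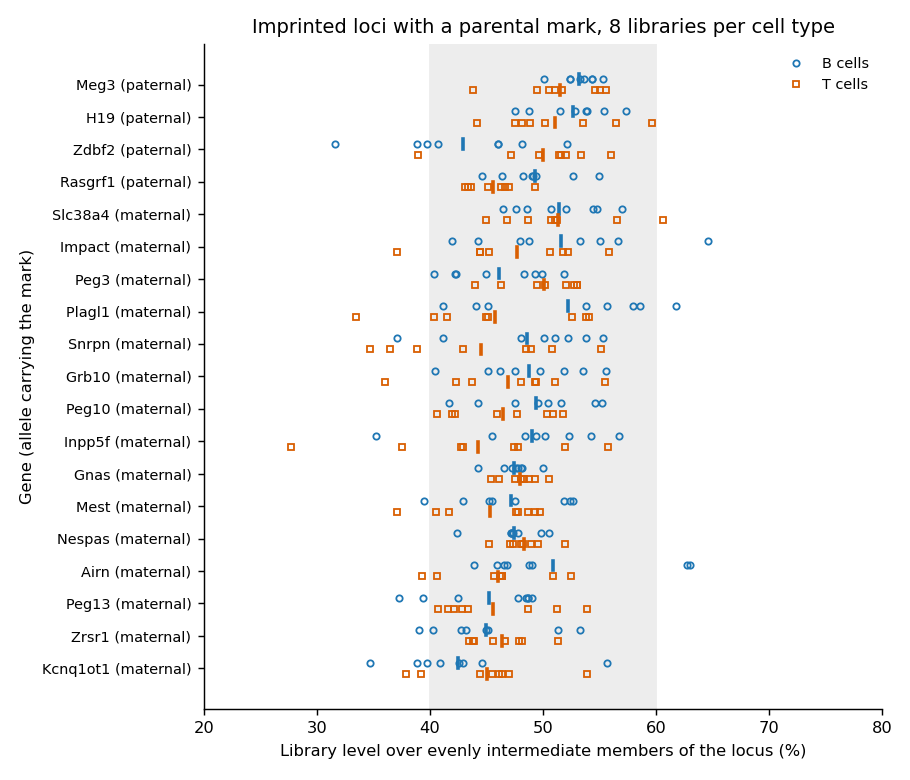
Methylation level of each library (x axis, %) over the evenly intermediate regions of 19 imprinted loci with a parental mark (y axis, with the marked copy in brackets as listed for the gene), with circles for 8 B cell and squares for 8 T cell libraries, bars for means and grey from 40 to 60%. The grey band marks the limits by which the regions were chosen, so that the means lie within it by choice, and the SD in B cells runs from 1.61 points at Meg3 to 7.72 points at Plagl1. At Zdbf2, 97 of the 117 CpGs lie in a region in an exon.

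Of the genes listed with a maternal mark, Gnas had the most evenly intermediate regions, 14 between chr2:174283001 and chr2:174328000 that held 675 CpGs. The start of its Nesp transcript, at the near end of this span, is known to be methylated on the paternal copy, so the 14 regions are not all a maternal mark. Its B cell libraries ran from 44.24 to 49.97% with a median of 47.7%, and its T cell libraries from 45.4 to 50.5% with a median of 48.2%. The libraries of both cell types overlapped over most of this narrow range, and the SD was 1.62 points for B cells and 1.66 points for T cells (n = 8 each). Mest, which encodes a hydrolase-like protein, had 5 regions in a single run with 185 CpGs. Its libraries ran from 39.4 to 52.6% with a median of 46.5% in B cells and from 37.1 to 49.8% with a median of 47.7% in T cells. Peg3, a zinc finger gene that shares its control region with Usp29, had 4 regions. Its level was 46.1% ± 4.26 for B cells and 50.1% ± 3.39 for T cells (SD, n = 8 each). The regions at Peg10, a gene derived from a retrotransposon, numbered 3, with 49.4% ± 4.72 and 46.4% ± 4.45.

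Several maternal marks lay at the starts of long non-coding RNAs that run antisense to a neighbour. At Kcnq1ot1 (chr7:143295001-143297000, 101 CpGs), within Kcnq1, B cell libraries ran from 34.6 to 55.6% with a median of 41.7% and T cell libraries from 37.8 to 53.9% with a median of 45.8%. At Airn (chr17:12741001-12743000, 102 CpGs), within the growth factor receptor gene Igf2r, they ran from 43.9 to 63.0% with a median of 47.8% and from 39.3 to 52.5% with a median of 46.2%. The choice of regions also bounds the difference between the cell types there. Snrpn, a splicing factor gene, had 48.6% ± 6.35 for B cells and 44.5% ± 7.40 for T cells. Zrsr1, a retrogene within Commd1, had 44.99% ± 5.01 and 46.3% ± 2.72, and Slc38a4, an amino acid transporter gene, 51.4% ± 3.75 and 51.3% ± 5.09 (SD, n = 8 each). In B cells the widest spread of the 19 loci was at Plagl1, a zinc finger gene, with 52.2% ± 7.72, beside 45.7% ± 7.39 for T cells. In T cells it was at the inositol phosphatase gene Inpp5f, with 44.2% ± 8.75, beside 49.0% ± 6.56 for B cells. At Inpp5f a single region of 55 CpGs was evenly intermediate, and 4 more regions within 5 kb of the gene were mixed or split.

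All 4 genes listed with a paternal mark had evenly intermediate regions. Upstream of the long non-coding RNA gene H19 (chr7:142580001-142582000, 59 CpGs), B cell libraries ran from 47.5 to 57.4% with a median of 53.3% and T cell libraries from 44.2 to 59.6% with a median of 49.5%. At Meg3 (chr12:109541001-109543000, 65 CpGs), also a long non-coding RNA, they ran from 50.1 to 55.3% with a median of 53.4% and from 43.8 to 55.6% with a median of 51.3%. Upstream of Rasgrf1, which encodes an exchange factor for Ras proteins, they ran from 44.6 to 54.9% with a median of 49.0% and from 43.1 to 49.3% with a median of 45.7%. Zdbf2, a zinc finger gene, had 1 such region 4265 bases before its start and another in an exon (chr1:63309001-63310000). Together they held 117 CpGs, of which 97 were in the exon region, so that their common level is mostly that of the exon. Over both, B cell libraries ran from 31.6 to 52.1% with a median of 43.4% and T cell libraries from 38.9 to 56.0% with a median of 51.5%. The limits by which regions were chosen bring the 2 cell types close together at these genes. At Meg3 the B cell libraries were the closest together of all 19 loci, with an SD of 1.61 points. Counting alone would give 2.39 points there over all 16 libraries, so this rank does not set the locus apart. Genes of the same clusters also had evenly intermediate regions. There were 3 at the growth factor gene Igf2, with 48.2% ± 3.59 for B cells and 47.1% ± 5.47 for T cells, 1 at Dlk1 and 2 at Rian (SD, n = 8 each).

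The stretch between Gpr1 and Zdbf2 held a further group of evenly intermediate regions outside the 5 kb limit, which was singled out after its values were seen. Of 15 eligible regions more than 5 kb from both genes, 11 were evenly intermediate and none was mixed or split. They held 223 CpGs from chr1:63251001 to chr1:63268000, which is 5265 to 22264 bases before the annotated start of Zdbf2. Over these 11 regions B cell libraries ran from 50.1 to 54.6% with a median of 51.4%, and T cell libraries from 45.4 to 53.8% with a median of 51.5%. The SD was 1.55 points for B cells and 3.08 points for T cells (n = 8 each), beside 1.62 and 1.66 points at Gnas.

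At 4 of the 23 genes with a parental mark no region was evenly intermediate. At Mcts2, a retrogene within H13, the 3 eligible regions had pooled levels of 94.6 to 97.9% in both cell types. At Nap1l5 the 2 regions at the start had 60.5 and 75.6% for B cells and 66.5 and 82.0% for T cells, above the limits. At Nnat, within an intron of Blcap, the region at the start held 60 CpGs and had 47.8% in B cells but 39.7% in T cells, just outside the limit. Its libraries ran from 34.5 to 63.8% for B cells and from 27.0 to 64.8% for T cells. At the cadherin gene Cdh15 a mixed region at chr8:122864001-122865000 had 46.1% for B cells and 57.2% for T cells, and the next region, with 55.9 and 60.1%, lay just outside.

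Of the 26 evenly intermediate regions with at least 60 CpGs, 12 were at imprinted loci of the list and 6 lay on chromosome 12 between 18 and 24 Mb, a stretch with 583 eligible and 23 intermediate regions. The latter were at starts of predicted genes, Gm21863 (106 CpGs), Gm47437 (94 CpGs), Gm40848 (85 CpGs), Gm40847 (82 CpGs), Gm49381 (80 CpGs) and Gm47393 (64 CpGs), and were singled out after their values were seen. At Gm21863 (chr12:19954001-19955000) B cell libraries ran from 49.1 to 54.4% with a median of 52.2% and T cell libraries from 43.3 to 54.6% with a median of 50.8%. Outside that stretch, evenly intermediate regions with many CpGs lay in exons of Rbmxl2, of the polarity gene Crb2 (97 CpGs), of the semaphorin gene Sema6b (93 CpGs) and of the heat shock protein gene Hspa1a (86 CpGs). At Rbmxl2 B cell libraries ran from 48.8 to 58.4% with a median of 51.8%, and T cell libraries from 44.9 to 58.2% with a median of 53.7%. At Crb2 the T cell level ran from 47.6 to 62.7% with a median of 52.8%. The Hspa1a region had 0.373 of the median depth. Among the 5 intermediate regions with most CpGs were also Grb10 (101 CpGs) and Gal3st3 (105 CpGs). Another was a mixed region at chr12:21778001-21779000 (102 CpGs), within the chromosome 12 stretch and 360364 bases from Ywhaq.

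Clustered protocadherins, cell adhesion genes of which single neurons express a few each, formed a further group. Of the 52 genes of this family with an eligible region within 1 kb of the start, 29 (55.8%) had an intermediate one there, beside 6.52% of all annotated genes and 7.88% of protein-coding genes. By cluster this was 10 of 14 Pcdha, 8 of 17 Pcdhb and 11 of 21 Pcdhg genes. With limits of 45 to 55% on the level the count was 14 genes. The 31 distinct regions were mixed in 28 cases, evenly intermediate in 2 and split in 1, while 62 of the 90 regions at imprinted loci were evenly intermediate. Their pooled levels ran from 43.5 to 59.1% in B cells with a median of 52.2%, and from 40.2 to 58.2% in T cells with a median of 49.6%. The median SD between libraries was 4.19 points for B cells and 3.95 points for T cells. The whole span, chr18:36930184-37841873, had 33 intermediate among 205 eligible regions (16.1%).

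Starts of other gene lists were read against the 6.52% of all genes. Among 365 zinc finger genes with an eligible start there were 23 (6.30%), close to the share of all genes, and 3 of them were evenly intermediate, at Zfp951, Zfp536 and Zfp503 (0.822%, beside 0.322% of all genes). Of 34 olfactory receptors, 1 had one, at Olfr222. None was found at 65 histone genes, 20 genes of the germline, 17 lymphocyte genes and 8 vomeronasal receptors, and the last 3 lists are too short to set 0 apart from the share of all genes. By contrast, 20 of 53 imprinted genes (37.7%) had an intermediate region at the start, and for genes with a maternal mark it was 11 of 17 (64.7%), and for genes with a paternal mark 1 of 4 (25%).

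The study's own retroviral and other repeat elements, which its authors chose in part for variable methylation in these same libraries, overlapped 234 eligible regions. Of these, 22 (9.40%) were intermediate, 12 of them evenly. Because the elements were chosen on these data, this share and their spread are a description only. The median SD was 9.06 points for B cells and 8.60 points for T cells. Each value is that of the whole 1 kb region, of which the element may cover a small part. Intracisternal A-particle (IAP) elements that the study classed as constitutively variable between mice accounted for 12 regions, at Sntg1, Tfpi, Pink1, Rsg1, Tmprss11d, Tfec, Aire, Gm20110, 5730507C01Rik (2 regions), Marveld2 and Olfr161. At IAP-Rsg1 (chr4:141210001-141211000, 49 CpGs) B cell libraries ran from 27.3 to 65.9% with a median of 42.6%, and T cell libraries from 27.6 to 72.1% with a median of 45.2%. At IAP-Sntg1 (chr1:8410001-8411000, 28 CpGs) they ran from 32.2 to 58.0% with a median of 44.0% and from 35.2 to 64.1% with a median of 46.9%. At both elements the libraries of either cell type were spread over more than 20 points. In the region that overlaps IAP-Olfr161, also classed as constitutively variable, 15.3% of bases were repeat-masked. The SD of this region was 5.58 points for B cells and 3.55 points for T cells, below the medians of all intermediate regions. It is not the SD of the element alone. Elements that vary in B cells but not in ear gave 3 regions, at Cyp4a12a, Mrs2 and Apol7e. Those classed as not variable gave 2, at Mrgprb5 (SD of 12.6 and 9.80 points) and Ear1 (9.22 and 4.78 points). Libraries had 36 to 96 calls in the region at Mrgprb5 and 63 to 121 in that at Ear1. The part of counting error in these SDs was not tested. Other endogenous retroviruses gave 2, at Cep85 and Kcnk12, and a LINE, a SINE and a further LTR gave 1 each. In the region of the LTR, near Mc3r, 8.4% of bases were masked. Its SD was 3.56 points for B cells and 5.53 points for T cells, below the median of this group.

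The spread of single libraries was described by the SD of their levels. The SD between the 8 libraries of a cell type, which the choice of regions did not use, had a median of 6.07 points for B cells and 5.84 points for T cells, against 2.32 and 2.33 points over all eligible regions. Part of this follows from the level, since counting error is largest near 50%. Counting alone would give a median of 4.15 points for B cells and 3.90 points for T cells in intermediate regions, and 2.18 and 2.11 points in all. The ratio of observed to counting variance, taken as the dispersion, had a median of 2.20 for B cells and 2.33 for T cells, against 1.24 and 1.33 over all eligible regions. Neighbouring calls on a read are not independent, so a dispersion over 1 includes that dependence. Regions within the limits in a single cell type gave values of the same size in that cell type, with a median SD of 6.33 points and a dispersion of 2.32 in B cells for those of B cells only, and 6.69 points and 2.85 in T cells for those of T cells only.

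The dispersion was also taken by kind of intermediate region. Its median was 2.95 for B cells and 3.33 for T cells for evenly intermediate, 1.91 and 2.03 for mixed and 2.48 and 2.63 for split regions. It was 6.80 and 6.60 for the 56 evenly intermediate regions at genes with a parental mark, with a median SD of 7.27 points for B cells and 7.15 points for T cells, beside 6.49 and 6.28 points in all evenly intermediate regions. These 56 held a median of 41 CpGs, beside 23 in all evenly intermediate regions. For the 31 regions at protocadherin starts it was 2.05 and 1.90, and for the 236 evenly intermediate regions that were at none of these places, in no study element and not over 50% masked it was 2.48 and 2.59. These medians describe the regions and were not compared by a test. An SD of at least 10 points in both cell types was found in 77 intermediate regions (1.04%), of which 20 were evenly intermediate, and in 261 of all eligible regions (0.0911%). Across the 7432 regions, Spearman's rho between the B and T cell SD was 0.260, and across the 340 evenly intermediate ones 0.430. The points share the CpG number and depth of each region.

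The region with the largest spread lay near C1s2 and is described with the sexes. The next was in introns of Gm20498 and Cox16 (chr12:81483001-81484000), an assembly factor gene of cytochrome c oxidase, where B cell libraries ran from 14.7 to 92.6% with a median of 46.5% and T cell libraries from 8.96 to 79.6% with a median of 39.7%. In the region that overlaps ERV-Cep85 (chr4:134162001-134163000, 13.5% repeat-masked), in an intron of a centrosomal protein gene, they ran from 17.5 to 75% with a median of 42.1% and from 35.1 to 79.4% with a median of 40.5%. B and T cell libraries overlapped over most of these ranges. In an intron of the receptor tyrosine kinase gene Erbb4 (chr1:68625001-68626000), where all bases were repeat-masked, they ran from 18.5 to 71.8% and from 17.5 to 59.6%. The others of the 10 largest were at the start of Gm43305 on chromosome 14, at IAP-Marveld2, in Ppp2r2b on chromosome 18, 29406 bases from Chd7, at IAP-Tfpi and in Gm26680, with an SD of 9.71 to 21.8 points for B cells and 11.2 to 21.4 points for T cells. Depth was low at most of the 10, from 20.5 to 75.3 calls per CpG over all libraries at 9 of them, beside a median of 134.9 for intermediate regions. The part of depth in these spreads was not tested.

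All of the 5 smallest spreads were found in mixed regions. In an intron of Dcdc2a (chr13:25150001-25151000, 19 CpGs) B cell libraries ran from 48.3 to 55.1% with a median of 53.3% and T cell libraries from 49.1 to 54.7% with a median of 52.5%. The others of the 5 smallest were in Gm43467 on chromosome 3, in AC141639.3 on chromosome 18, near Kif26a and 95575 bases from Vrk1, with an SD of 2.09 to 2.95 points for B cells and 1.92 to 2.85 points for T cells. The regions with most calls per CpG were in the centromere chaperone gene Hjurp (496 calls per CpG over all libraries), in D130009I18Rik (472), in the Fc receptor gene Fcgr3 (369) and on chromosome 6 at 3182001 and 3183001 (355 and 373). Their SD was 1.61 to 7.90 points for B cells and 1.58 to 5.57 points for T cells. More than 2 times the median depth was found in 10 intermediate regions (0.135%), of which 5 were evenly intermediate (1.47% of these), and in 201 of all eligible regions (0.0702%). Whether reads of further genomic copies were placed there was not tested.

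**Figure D5:**
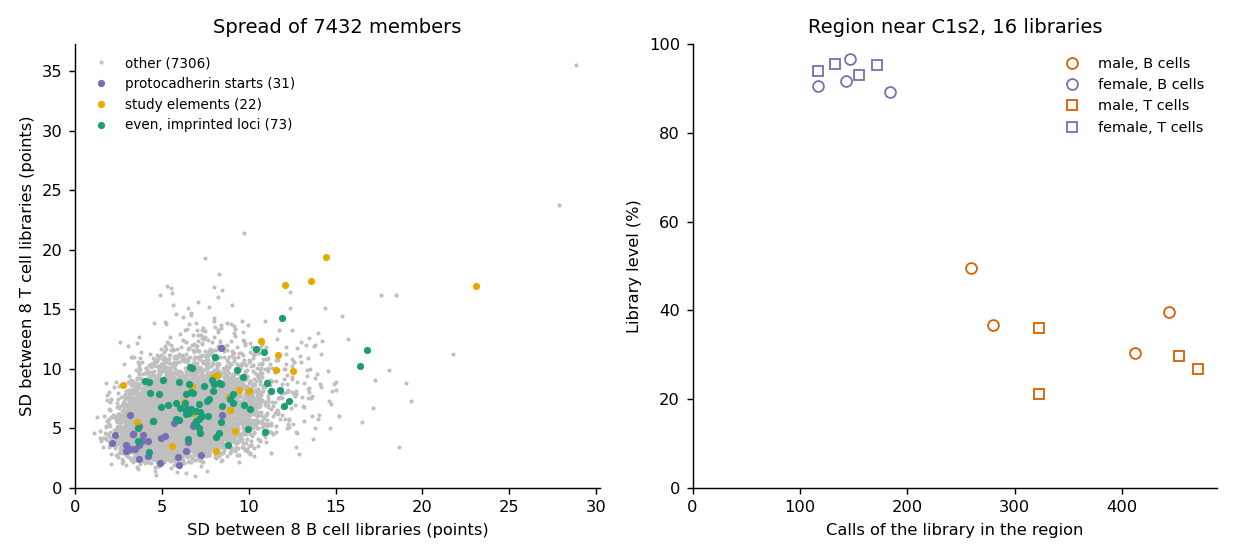
Left, SD of methylation level between 8 B cell libraries (x axis, points) against 8 T cell libraries (y axis, points) for each of the 7432 intermediate regions, coloured by place, and right, level (%) of each of 16 libraries against its number of calls in the region near C1s2, coloured by sex. On the left most regions lie near the medians of 6.07 and 5.84 points, and on the right the 8 male libraries have the lower levels and the higher numbers of calls.

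Male and female libraries were compared in every eligible region by fitting a quasi-binomial logistic model to the calls, adjusted for cell type and assay. With Benjamini-Hochberg adjustment and a threshold of 0.05, 1 region of 286544 (3.49e-04%) was called, and it was an intermediate region. It lies 2916 bases from the complement protease gene C1s2 (chr6:124639001-124640000, 19 CpGs, 48.7% repeat-masked). In B cells the 4 male libraries ran from 30.3 to 49.4% and the 4 female libraries from 89.1 to 96.6%. In T cells males ran from 21.1 to 35.9% and females from 92.9 to 95.5%. Sexes did not overlap in either cell type, and the pooled level of 54.1% for B cells and 46.1% for T cells lay between those of the sexes. Females were higher by 52.9 points in B cells (92.0% ± 3.24 against 39.0% ± 7.94, SD, n = 4) and by 66.1 points in T cells (94.4% ± 1.22 against 28.4% ± 6.19). The adjusted p of the quasi-binomial model was 5.83e-04, and the interaction of sex and cell type had an unadjusted p of 0.138 in the same kind of model.

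The number of calls moved with the sex difference. Male libraries had 259 to 471 calls in the region near C1s2 and female libraries 117 to 184, a ratio of 2.54 in total where the median over eligible regions was 0.964. The 1 kb regions up to 3 kb to either side differed between the sexes by -3.08 to 4.14 points, with ratios of 0.903 to 1.07. A ratio more than 1.5 times the median was seen in 68 eligible regions, of which 4 were intermediate, those near C1s2, in Cox16, at the start of Sp110 and on chromosome 1 at 84962001. The part of the additional male calls in the difference near C1s2 was not tested, nor was it tested whether male reads from another place in the genome were placed in this repeat. If they were, the male level would not be that of this region alone. With B or T cells alone, 0 regions were called at n = 4 against 4, with the smallest adjusted p at 1.00 and 0.851 (quasi-binomial model), while 236 (3.18%) and 248 (3.34%) intermediate regions had an unadjusted p under 0.05, beside 1.75 and 1.79% of all eligible regions.

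An unadjusted p under 0.05 for sex was found in 379 intermediate regions (5.10%), of which 28 were evenly intermediate (8.24% of these), and in 3.62% of all eligible regions. By limma on log ratios the order of these shares turned round, with 218 intermediate regions (2.93%) and 4.63% of all eligible regions. Over intermediate regions the median of female minus male was -0.00941 points, and 90% of the differences lay between -5.32 and 5.42 points. At the 19 imprinted loci females were the higher in 13, beside 58.5% of evenly intermediate, 49.9% of intermediate and 51.8% of all eligible regions, and the largest difference was 4.36 points, at Grb10 (50.01% in females and 45.6% in males). Gnas and Nespas share 12 regions and are not independent loci. None of the 56 evenly intermediate regions at these genes was called, and 2 had an unadjusted p under 0.05.

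BS and oxBS libraries were compared in the same way, with cell type and sex as covariates. No region was called (0 of 7432 and 0% of all eligible regions), and the smallest adjusted p among intermediate regions was 0.242 (quasi-binomial model). At an unadjusted p under 0.05 there were 504 intermediate regions (6.78%), beside 8.40% of all eligible regions, and by limma on log ratios, which also called 0, there were 320 (4.31%), beside 8.85% of all. The median of BS minus oxBS was 0.701 points over intermediate and 0.396 points over all eligible regions. It was -0.441 points in B cells (-0.0782 over all) and 1.86 points in T cells (0.814 over all), positive in T cells at 65.6% of intermediate regions and 68.2% of all. The median level of the intermediate regions separated the T cell libraries by assay, at 51.3 to 51.6% in the 4 BS and 49.2 to 49.5% in the 4 oxBS libraries, while those of B cells overlapped. Over evenly intermediate regions the T cell median of BS minus oxBS was 0.444 points, and the median levels of BS and oxBS libraries overlapped in T cells. The largest difference at an imprinted locus was 7.33 points at Impact, a gene for a regulator of translation (53.3% in BS and 46.0% in oxBS libraries). No interaction of sex or assay with cell type was called at an adjusted p under 0.05, while 322 (4.33%) and 594 (7.99%) intermediate regions had an unadjusted p under 0.05 (quasi-binomial model), beside 3.08 and 8.06% of all eligible regions.

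Calls on chromosomes 1 to 19 and X numbered 123323834 to 170619848 in B cell and 154137941 to 169620408 in T cell libraries, with a median of 124 to 172 and 161 to 176 calls per intermediate region. The median level of the intermediate regions was 49.5 to 51.5% in every B cell library and 49.2 to 51.6% in every T cell library, where it separated BS from oxBS libraries as given above. Cell type labels were checked at gene starts (500 bases to either side), where the B cell gene Ms4a1 was low in B cells (0.903% against 92.8% in T cells) and T cell genes low in T cells (Cd3e, 1.83% against 89.6% in B cells; Cd3d, 4.77% against 94.1%). Other genes were less far apart, with Cd79b at 2.25% in B and 33.3% in T cells, Blk at 0.181 and 9.70%, Cd5 at 51.7 and 8.99%, and Lck at 59.4 and 8.78%. Of genes of other spleen cells, Csf1r was at 90.21 and 95.01% and Ncr1 at 88.8 and 89.4%, and the myeloid gene Itgam was at 48.0% for B cells and 32.4% for T cells.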

How the data were processed

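WGBS was analysed in 16 libraries, 8 of B cells and 8 of T cells. Per the labels, the authors trimmed reads with Trim Galore 0.6.0, mapped them to mm10 (GRCm38) with Bismark 0.20.0 and used SAMtools 1.3.1, and the study's methods ask for a MAPQ of 10 or more. The deposited files hold raw counts, with a row per CpG that gives its unmethylated and its methylated calls. Strands had been combined by the authors, nothing was normalized, and CpGs without a call are not listed. Between 44938 and 61854 listed positions per library on chromosomes 1 to 19 and X did not match a CpG of the reference and were dropped. Sequence came from the NCBI copy of GRCm38 and gene annotation from GENCODE release M21.

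Counts were summed over regions of 1 kb and over the 8 libraries of a cell type. A library entered an SD with at least 20 calls in the region. All 16 libraries had 20 calls in 7431 of the 7432 intermediate regions. The 2 libraries of each cell type, sex and assay had identical counts at 7.39 to 8.38% of CpGs of chromosome 19, so neither repeated the other there. Libraries that differ in cell type, sex or assay were not compared in this way. Sex and assay were each tested with a quasi-binomial logistic model (dispersion from Pearson residuals, not lower than 1, F test, Benjamini-Hochberg adjustment over all 286544 regions, threshold 0.05), with the other factor and cell type as covariates. The levels that chose the regions were given with no test. The model was first tested on simulated data, where it recovered large differences between the sexes but missed smaller ones. The simulation held far fewer regions than the 286544 adjusted over here, so its rate of recovery does not carry over. A region that was not called may therefore still differ, also by a large amount. As the alternative, limma 3.58.1 (R 4.3.3) was run on log2 of the ratio of methylated to unmethylated calls, with 0.5 added to each. Counting SDs cover counting error only. Alternatives covered the CpG and call minimum, the limits of level, the grid, the averaging, the assay or sex used, the class limits and each library left out.

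Named regions were those at imprinted loci, the 10 with the largest and 5 with the smallest spread, the 5 with most CpGs, the 5 longest runs, the 5 with most calls per CpG, those in study elements, those called for sex or assay, those nearest the limits and those at starts of listed genes. Element positions came from the study's supplement. The regions and lists were chosen with earlier results of these data known, and no pattern found earlier is independent support. Calculations were made in Python 3.11.15 (NumPy 2.4.6, pandas 2.3.3, SciPy 1.17.1) and plots with Matplotlib 3.10.9.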

Additional observations from a re-analysis of the deposited data

Results flagged for a closer look

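A library far from the other 7 of its cell type was found in 7 of 126 sets of levels examined (5.56%), where chance flags about 1 in 20 groups. At the Nespas locus a female BS library of B cells had 42.4%, and the others had 47.2 to 50.5%. At the Kcnq1ot1 locus a male oxBS library of B cells had 55.6%, and the others had 34.6 to 44.6%. At Gm43305 a male oxBS library of T cells had 25.3%, and the others had 51.8 to 73.5%. In the region near Ywhaq a female BS library of B cells had 38.5%, below 47.5 to 52.5% in the others. At Fcgr3 a male oxBS library of B cells had 46.8%, below 49.4 to 51.7%. Near Cyp4a12a a male BS library of T cells had 63.9%, above 44.4 to 53.3%, and near 5730507C01Rik a male oxBS library of T cells had 75.3%, above 45.8 to 57.7%. These were 7 different libraries.

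The X chromosome was outside the choice of regions and was examined by sex with the same CpG and level limits and at least 200 calls in each cell type. In female libraries 325 of 6471 eligible X regions (5.02%) lay from 40 to 60% in both cell types, beside 73 of 4805 (1.52%) in male libraries. On the autosomes the same count gave 2.48% in female and 2.52% in male libraries. Only 4 libraries of a sex and cell type were pooled here, and the difference was not tested.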

How the results depend on the processing

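The number of intermediate regions, 7432, was 14584 with at least 10 CpGs, 3193 with at least 20 CpGs, 2657 with levels of 45 to 55% and 13183 with levels of 35 to 65%, and 6949 to 8001 under the other alternatives. Without 1 library it was 7353 to 7443. The number of evenly intermediate regions, 340, changed with the limits for CpGs and with the share of CpGs required. It was 135 with limits of 30 to 70%, 716 with 20 to 80%, 906 with 60% of CpGs and 97 with 90% of CpGs, and 328 to 343 without 1 library. Imprinted genes with an intermediate region stayed between 30 and 46 of 61 (42 in the report), and those with a parental mark (counted under alternatives chosen after seeing the data) between 18 and 22 (21). Protocadherin genes with an intermediate start, also counted under alternatives chosen after seeing the data, numbered 14 with levels of 45 to 55% and 22 to 38 under the others (29). The median SD stayed between 5.66 and 6.08 points in B cells and between 5.22 and 5.84 points in T cells. Regions called for sex numbered 2 with the dispersion not limited, 0 in B cells alone and 0 in T cells alone, and 1 under the other alternatives. The call near C1s2 kept an adjusted p of 2.15e-04 to 0.00542 (quasi-binomial model) without each library in turn. Regions called for assay numbered 2 with the dispersion not limited, none of them intermediate, and otherwise 0. No called result changed direction, but the share with an unadjusted p under 0.05 for sex was higher in intermediate than in all eligible regions by the quasi-binomial model (5.10 against 3.62%) and lower by limma (2.93 against 4.63%), and the cause was not tested. No paired analysis was possible because the replicate numbers run from 1 to 16 and no groups share a number. A CpG had 5.77 to 7.99 calls per library on average, so that single CpGs were described from pooled calls only.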
